A study of Mus musculus with 6 samples.

Results

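The 10 genes described here are core markers of astrocytes, the star-shaped glia of the brain: Gfap, S100b, Aqp4, Gja1, Slc1a3, Slc1a2, Aldoc, Glul, Agt and Apoe. They were chosen by name from the gene column of the authors' deposited table, which has a single row for each of them among its 12316 rows. The cells were neural stem cells of E14.5 CD-1 mouse embryos, bought from a supplier and kept as a monolayer with EGF and bFGF. Poly(A) RNA was sequenced from 6 libraries: 2 of cells with Sox4 shRNA 1, 2 with Sox4 shRNA 2 and 2 with a scrambled shRNA, the last being the control. In every group the hairpin (a short RNA that lowers its target) was delivered by lentivirus and the cells were selected with puromycin at 0.5 µg/mL, so the control carries vector and selection too. The 2 libraries of a group are different passages, which are not stated to be separate cultures.

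Astrocytes arise from radial glia, the stem cells of the developing brain, after neurons have been made, and several of these markers are already active in the stem cells themselves. Gfap and S100b are used as marks of a more mature astrocyte, while Slc1a3, Glul, Aldoc, Gja1 and Apoe are also transcribed in radial glia and in cultured neural stem cells. JAK-STAT, BMP and Notch signalling and the nuclear factor I proteins are known to switch on Gfap. Sox4, the gene targeted here, encodes a transcription factor of the SoxC group.

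The authors' deposited table gives 1 level per condition for a single comparison, and its header names neither condition. Which hairpin belongs to which condition, and whether both Sox4 hairpins were pooled, is therefore not stated, and no condition was assigned from the values. "Fell" and "rose" below mean called by the authors' own test (Cuffdiff, q up to 0.05) and lower or higher in the second condition than in the first. Sox4 itself stood at 83.9 in the second and 126.8 in the first condition in the authors' deposited table, with a Cuffdiff q of 0.0543, and was not called. Levels are taken as FPKM, fragments scaled to transcript length and library size, which Cuffdiff writes in these columns, although the header gives no unit. There is no value per library, so no standard deviation, sample size or depth stands behind any level. The p-values measure a spread between libraries that may be technical. If both Sox4 hairpins were pooled, that spread also includes differences between hairpins, and which applies is not stated.

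Of the 10 astrocyte genes, 6 fell, 0 rose and 4 were not called. Among all rows of the authors' deposited table, calls made up 4.99%, with 1.83% falling and 3.17% rising. Gfap, Agt, Aqp4, Apoe, Slc1a2 and Glul were the genes that fell, and S100b, Gja1, Aldoc and Slc1a3 were not called. All but Slc1a3 had a negative log2 fold, 9 of 10, where 49.5% of all rows did. The median log2 fold of the 10 genes was -1.02, against 0.00335 over all rows. At an unadjusted Cuffdiff p under 0.05 there were 9 of the 10, again all but Slc1a3. The share of all rows under that p was not counted. The 4.99% called is no background for it, nor for such counts in the lists below. The 6 genes that fell share the lowest p the test gives, 5e-05, and the q of 0.00304 that goes with it in the authors' deposited table. Those values are shared by 230 rows, 88 of them lower in the second condition, so the 6 cannot be ranked among themselves by p. The 10 genes were chosen with earlier results of these data known, and no test of the list as a whole was made.

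**Figure D1:**
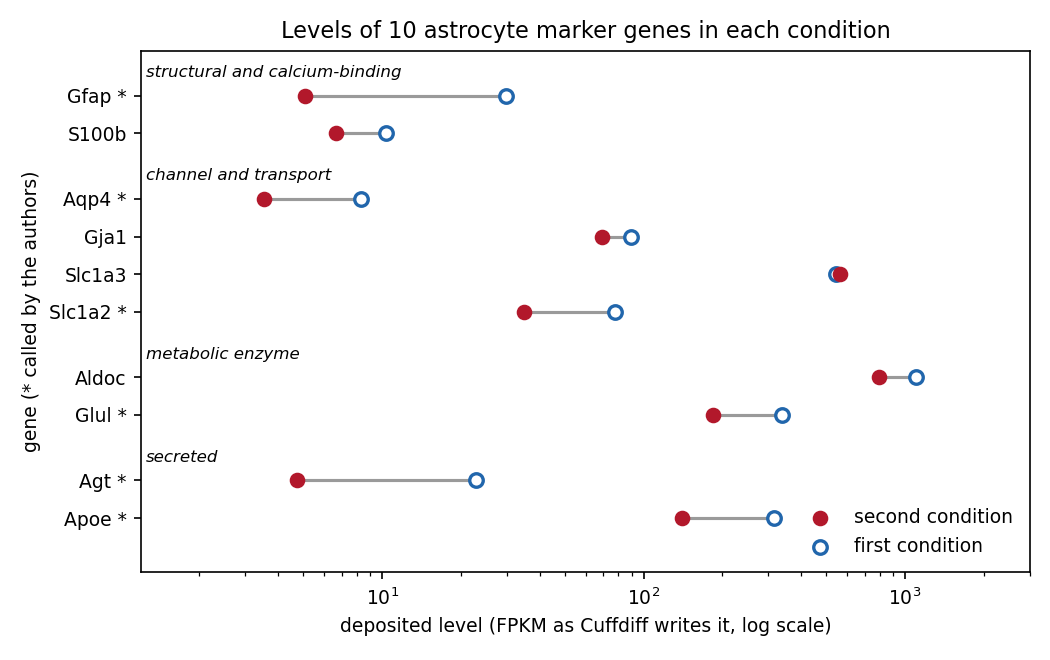
Deposited level of each of the 10 genes (horizontal axis, FPKM on a log scale) in the second condition (filled red) and the first condition (open blue), with genes grouped by role and an asterisk on those called by the authors. The distance between the points is longest for Gfap, 5.08 in the second against 29.7 in the first, and Agt, 4.71 in the second against 22.9 in the first, while the points of Slc1a3 nearly coincide, at 565 in the second and 543.6 in the first condition.

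The size of the change differed among the genes far more than its direction. Gfap was the 11th lowest log2 fold of all 12316 rows in the authors' deposited table and Agt the 19th lowest. Aqp4 ranked 122nd from the lowest, Apoe 153rd, Slc1a2 155th and Glul 294th. S100b ranked 568th, Aldoc 1107th and Gja1 1700th, all in the lowest 13.8% of rows. Slc1a3 lay near the middle, at percentile 56.6 of the log2 folds.

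**Figure D2:**
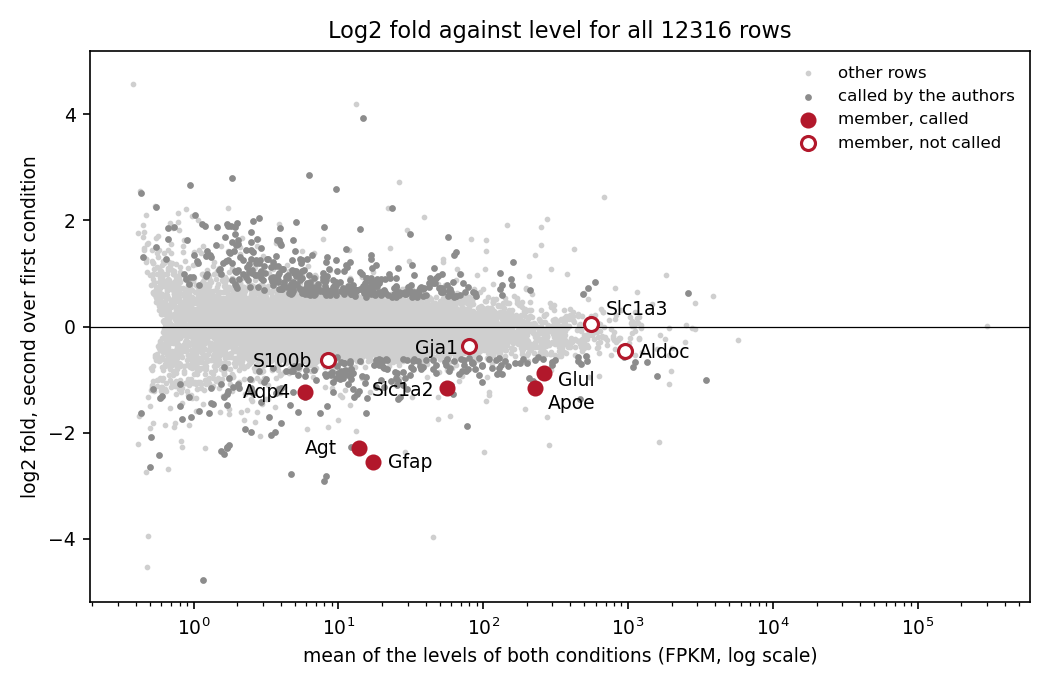
Log2 fold of the second over the first condition (vertical axis) against the mean of both levels (horizontal axis, FPKM on a log scale) for every row of the deposited table, with the 10 astrocyte genes in red, filled where called. Gfap and Agt lie at -2.55 and -2.28 at moderate levels, below almost all rows of like level, while Slc1a3, at 0.06, lies within the band of pale grey rows around 0.

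The promoter windows of the 2 genes with the deepest falls, Gfap and Agt, are shown with those of the glutamate transporter pair Slc1a3 and Slc1a2, of which only the second fell. Each window runs from 250 bases before to 50 after a RefSeq start site, on build GRCm38.p6, and reads 5′ to 3′ along the gene. Gfap is at chr11:102897151-102897450, minus strand. Agt is at chr8:124569657-124569956, minus strand. Slc1a3 is at chr15:8710758-8711057, minus strand. Slc1a2 is at chr2:102706188-102706487, plus strand. Capitals mark matches, on either strand, to a STAT element (TTCNNNGAA), an NFI half-site (TTGGCA), a SOX core (ACAAAG), an RBPJ core (TGGGAA) or a TATA box (TATAAA), and no matches overlap in these windows.
Gfap: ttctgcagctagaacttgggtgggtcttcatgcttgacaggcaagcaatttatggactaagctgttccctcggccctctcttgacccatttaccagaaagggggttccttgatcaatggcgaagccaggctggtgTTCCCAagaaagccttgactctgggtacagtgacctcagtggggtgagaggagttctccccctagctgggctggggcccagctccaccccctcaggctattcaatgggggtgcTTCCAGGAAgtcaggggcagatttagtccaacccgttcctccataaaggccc
Agt: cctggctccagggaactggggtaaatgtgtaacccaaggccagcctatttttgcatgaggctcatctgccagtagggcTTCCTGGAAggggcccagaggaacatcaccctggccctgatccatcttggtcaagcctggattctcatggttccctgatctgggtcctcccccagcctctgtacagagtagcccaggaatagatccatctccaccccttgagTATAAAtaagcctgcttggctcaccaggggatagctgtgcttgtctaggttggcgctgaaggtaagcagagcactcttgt
Slc1a3: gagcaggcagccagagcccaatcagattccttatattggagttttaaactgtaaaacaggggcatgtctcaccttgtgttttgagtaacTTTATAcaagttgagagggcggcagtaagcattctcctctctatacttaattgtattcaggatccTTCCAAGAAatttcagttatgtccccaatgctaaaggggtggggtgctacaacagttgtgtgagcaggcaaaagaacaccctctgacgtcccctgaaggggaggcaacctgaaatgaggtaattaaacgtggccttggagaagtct
Slc1a2: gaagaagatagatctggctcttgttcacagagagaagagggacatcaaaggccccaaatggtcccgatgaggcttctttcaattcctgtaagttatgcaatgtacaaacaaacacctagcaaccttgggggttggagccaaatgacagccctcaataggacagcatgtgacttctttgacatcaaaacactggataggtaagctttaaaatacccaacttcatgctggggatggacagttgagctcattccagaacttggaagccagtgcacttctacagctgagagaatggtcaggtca

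In the Gfap window the capitals are TTCCCA, an RBPJ core read on the other strand, and TTCCAGGAA, a STAT element that begins 2 bases before the start site. In the Agt window they are TTCCTGGAA, a STAT element 172 bases before the start, and TATAAA, 30 bases before it. In the Slc1a3 window they are TTTATA, which the opposite strand reads as a TATA box, and TTCCAAGAA, a STAT element 96 bases before the start. The Slc1a2 window holds none of the 5 motifs, but its start site lies 47.8 kb inside the gene as annotated, so the outermost 5′ end was not searched. The Gfap start site likewise lies 3.71 kb inside. Windows of 9 of the 10 genes were searched, 12 windows in all, and Aqp4, on chromosome 18, was left out of the search. A STAT element stood in 4 of the 12 windows, 1 each of Gfap, Agt, Aldoc and Slc1a3, and in 8.3% of all 32851 windows. The genes with a STAT element thus include 2 that fell and 2 that were not called. An NFI half-site stood in 3 of the 12 windows (Apoe, S100b and Aldoc), against 14.1% of all windows, and an RBPJ core in 5 of the 12 (Gfap, S100b, Apoe and both of Aldoc), against 25.6%. A SOX core was found in 1 of the 12 windows, of Apoe, and in 18.7% of all windows. A TATA box stood in 3 of the 12 windows (Apoe, Agt and Slc1a3), against 13.6% of all windows. Apoe windows 2 and 3, which overlap, have start sites 0.567 and 0.79 kb inside the gene, and Aldoc window 2 has one 1.23 kb inside. The NFI, RBPJ and TATA matches of Apoe and the STAT matches of Aldoc lie in those inner windows. The outermost Apoe window holds only the SOX core. Such matches describe the letters of these windows and are not evidence of binding.

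Of the structural and calcium-binding genes, Gfap fell and S100b was not called. Gfap encodes the glial fibrillary acidic protein, the intermediate filament that gives the astrocyte its cytoskeleton (chromosome 11, 102887336 to 102900912, minus strand, on GRCm38 as are all gene positions here). It stood at 5.08 in the second and 29.7 in the first condition in the authors' deposited table, giving a log2 fold of -2.55, which is 5.84-fold lower. That placed Gfap at percentile 27.1 of all levels in the second condition and 73.8 in the first. S100b, a calcium-binding protein found inside astrocytes and also released by them (chromosome 10, 76253853 to 76261159, plus strand), stood at 6.63 in the second and 10.3 in the first condition in the authors' deposited table. The log2 fold of -0.64 had a Cuffdiff p of 0.0118 and a q of 0.139. The order of these genes differed between the conditions: S100b was 1.31 times the level of Gfap in the second condition and 0.348 times in the first.

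Few other intermediate filaments were measured. Of 14 other filament genes listed, 6 were in the authors' deposited table, and 0 fell and 1 rose, with 3 at an unadjusted Cuffdiff p under 0.05; at 1.83% of all rows falling, 0 of 6 is no result about the family. Nes, which encodes nestin, the filament of neural stem cells, rose to 169.8 in the second condition, against 98.1 in the first, in the authors' deposited table (q of 0.00304). Vim, which encodes vimentin, stood at 775 in the second and 709 in the first condition there and was not called (q of 0.827). Vim was 152.6 times the level of Gfap in the second condition and 23.9 times in the first. The lamin genes Lmna, Lmnb1 and Lmnb2 and the neuronal filament gene Ina were not called. Among 8 listed S100 relatives in the authors' deposited table, with S100pbp, a binding protein, counted, 1 fell and 0 rose, with 2 at an unadjusted Cuffdiff p under 0.05. S100a10, a partner of annexin, stood at 4.32 in the second and 12.2 in the first condition in the authors' deposited table (q of 0.0162). The log2 folds of the other 7 S100 genes lay between -1.18 (S100a6) and 0.62 (S100a11) in the authors' deposited table.

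Channels and transporters gave 2 falls among 4 genes and log2 folds between -1.23 and 0.06. Aqp4, the water channel of astrocyte endfeet (chromosome 18, 15389496 to 15410982, minus strand), had levels of 3.52 in the second and 8.27 in the first condition in the authors' deposited table, 2.35-fold lower. It was the lowest of the 10 genes in both conditions. Gja1, connexin 43, the main gap junction protein of astrocytes (chromosome 10, 56377330 to 56402513, plus strand), stood at 69.5 in the second and 89.2 in the first condition in the authors' deposited table. The log2 fold of -0.36 had a Cuffdiff p of 0.0452 and a q of 0.294, and it was not called.

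The glutamate transporter genes parted. Slc1a3 encodes GLAST, the transporter of radial glia and early astrocytes (chromosome 15, 8634124 to 8710764, minus strand), and Slc1a2 encodes GLT-1, the transporter that becomes prominent as astrocytes mature (chromosome 2, 102658659 to 102790784, plus strand). Slc1a3 stood at 565 in the second and 543.6 in the first condition in the authors' deposited table, with 0.06 as log2 fold and 0.948 as q. Slc1a2 stood at 34.9 in the second and 77.8 in the first condition there, a log2 fold of -1.16, and fell. The level of Slc1a3 was 16.2 times that of Slc1a2 in the second condition and 6.99 times in the first. With 1 level per condition, the difference between the log2 folds, -1.21 for Slc1a2 minus Slc1a3, could not be tested. Exons of Slc1a2 and Gm13872 overlap in antisense, so their reads cannot be told apart if counting took no account of strand.

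Slc1a2 has the longest transcript of the 10 genes, 11595 nt by the annotation used here, and that places it among the longest 10% of transcripts. In that group 161 genes rose and 16 fell, and the median log2 fold was 0.234. Among the shortest 10% of transcripts 6 rose and 31 fell, and the median was -0.224. The part of transcript length in the calls was not tested. Slc1a2 was 1 of the 16. With the median of its length group taken off, its log2 fold was -1.39 in place of -1.16. The shortest transcript of the 10 is that of Apoe, 1408 nt, and its log2 fold was -1.07 after the same step, against -1.16 as deposited. Gfap, at 2648 nt, and Agt, at 1891 nt, had -2.49 and -2.23 after it. Several other genes named below as falling are among the shortest 10%, such as Cst3, at 860 nt, and Fabp7, at 880 nt, whose log2 folds were -1.14 and -0.79 after that step. Several that rose are among the longest, such as Utrn, at 12382 nt, and Lnpep, at 12052 nt, with 0.55 and 0.62 after it.

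Partners of these channels and transporters gave few calls, to be read against the 4.99% of all rows. Of 12 aquaporins and proteins of the dystrophin complex that anchors Aqp4 at the endfoot, 0 fell and 1 rose in the authors' deposited table, and 3 had an unadjusted Cuffdiff p under 0.05. The riser was Utrn, which encodes utrophin, at 6.58 in the second and 3.83 in the first condition in the authors' deposited table (q of 0.00304). Besides Gja1, 4 connexin and pannexin genes were in the authors' deposited table. All had a negative log2 fold, where 49.5% of all rows did, and 1 of them fell. It was Gjd2, connexin 36 of neurons, at 0.904 in the second and 2.51 in the first condition in the authors' deposited table (q of 0.0135); its exons overlap A530058N18Rik on the other strand. Of the other SLC1 genes, Slc1a5, a transporter of neutral amino acids, rose to 6.60 in the second condition, against 3.20 in the first, in the authors' deposited table. Slc1a1, Slc1a4 and Slc1a6 were not called, with log2 folds between -0.64 and -0.08 in the authors' deposited table.

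Of the metabolic enzymes, Glul fell and Aldoc was not called. Glul encodes glutamine synthetase, which turns the glutamate taken up by astrocytes into glutamine (chromosome 1, 153899944 to 153909723, plus strand). It stood at 183.6 in the second and 338.7 in the first condition in the authors' deposited table, giving a log2 fold of -0.88. This was the smallest change among the 6 genes that fell and the only one of them under 2-fold, at 1.85-fold lower. Exons of Glul overlap Teddm2 on the other strand and Mir8114 on the same strand. Aldoc, the aldolase isoenzyme of the brain (chromosome 11, 78322968 to 78327781, plus strand), was the highest of the 10 genes in both conditions, at 796 in the second and 1101 in the first in the authors' deposited table. The log2 fold of -0.47 had a Cuffdiff p of 0.0174 and a q of 0.175.

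Neighbouring steps of metabolism gave a few calls, to be read against the 1.83% of all rows that fell and the 3.17% that rose. Of 15 further genes of the SLC1 family and the glutamate cycle in the authors' deposited table, 2 fell and 1 rose, the riser being Slc1a5. Glud1, glutamate dehydrogenase, stood at 138 in the second and 222 in the first condition in the authors' deposited table (q of 0.0119), and fell. Slc38a1, a glutamine transporter, stood at 23.7 in the second and 40.2 in the first condition in the authors' deposited table (q of 0.00304), and fell as well. Aldoa, the widespread aldolase, stood at 732 in the second and 607 in the first condition in the authors' deposited table, with a q of 0.51. The level of Aldoc was 1.09 times that of Aldoa in the second condition and 1.81 times in the first. Among 16 other genes of glycolysis, in 17 rows, 0 fell, 1 rose and 13 rows had a positive log2 fold in the authors' deposited table. Over all rows 49.5% had a negative log2 fold. Cuffdiff gave 3 of the 17 rows an unadjusted p under 0.05. The gene that rose was Hk2, a hexokinase, at 8.64 in the second and 3.59 in the first condition in the authors' deposited table.

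Both secreted markers fell. Agt encodes angiotensinogen, the precursor of angiotensin, which astrocytes make in the brain (chromosome 8, 124556534 to 124569706, minus strand). It stood at 4.71 in the second and 22.9 in the first condition in the authors' deposited table, giving a log2 fold of -2.28, which is 4.87-fold lower. Its percentile among all levels was 25.6 in the second condition and 67.3 in the first. Apoe encodes apolipoprotein E, the main lipid carrier that astrocytes release (chromosome 7, 19696109 to 19699188, minus strand). It stood at 140.7 in the second and 314.8 in the first condition in the authors' deposited table, giving a log2 fold of -1.16, and at percentile 95.3 of all levels in the second and 98.1 in the first. So Apoe stayed among the abundant transcripts in both conditions, and Agt did not.

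The enzymes and receptors that act with these secreted proteins gave few calls, to be read against the 1.83% of all rows that fell and the 3.17% that rose. Of 15 renin-angiotensin genes listed, 4 were in the authors' deposited table, and 0 fell and 1 rose, with 2 at an unadjusted Cuffdiff p under 0.05. Lnpep, an aminopeptidase that cleaves angiotensin peptides, rose to 24.4 in the second condition, against 13.5 in the first, in the authors' deposited table (q of 0.00304). Ren1, Ace and the angiotensin receptor genes are not among the rows analysed here. Of 14 apolipoprotein and lipid efflux genes in the authors' deposited table, 0 fell and 2 rose, with 4 at an unadjusted Cuffdiff p under 0.05. Lrp1, a receptor of Apoe, rose to 43.1 in the second condition, against 27.7 in the first, in the authors' deposited table (q of 0.0248). Clu, clusterin, the other abundant apolipoprotein of adult astrocytes, stood at 5.33 in the second and 8.22 in the first condition in the authors' deposited table, with a q of 0.204. Apoc1, the gene beside Apoe, stood at 1.09 in the second and 1.47 in the first condition in the authors' deposited table, without a call.

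**Figure D3:**
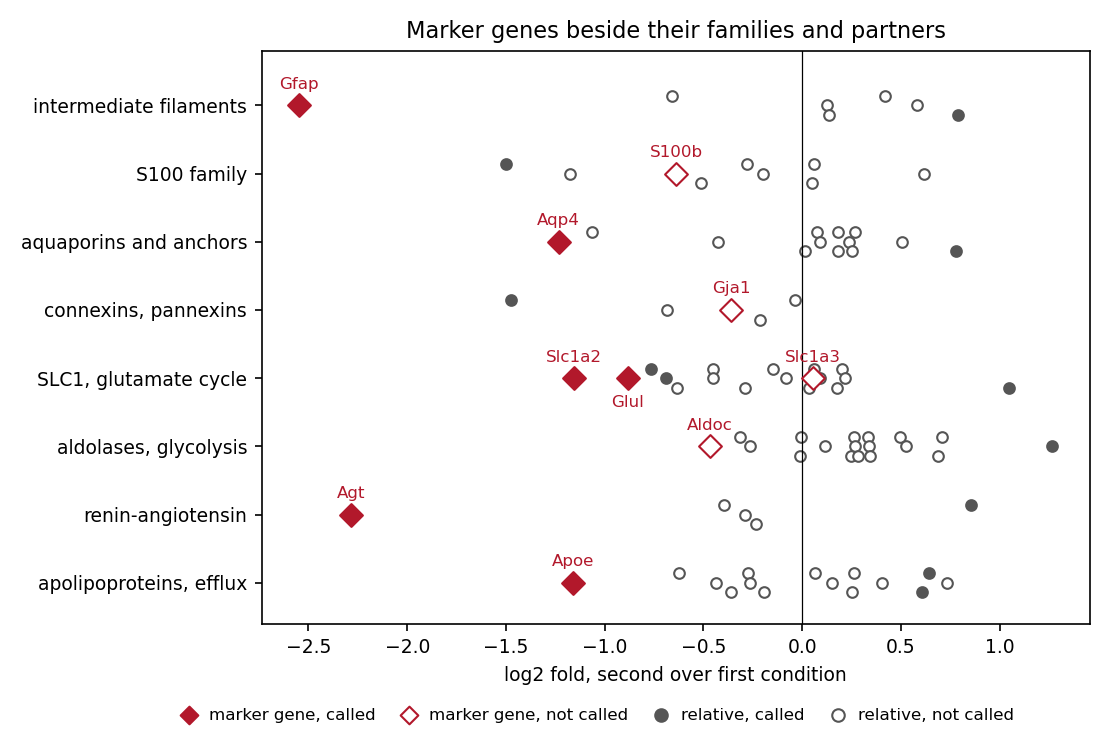
Log2 fold of the second over the first condition (horizontal axis) for the 10 astrocyte genes (red diamonds) and for the listed relatives or partners of each (grey circles), filled where called by the authors. Except S100b, Gja1 and Slc1a3, each marker gene lies to the left of every listed relative in its row, and the called relatives on the right include Nes, Utrn, Hk2 and Lnpep.

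Set side by side, the ranges of the roles overlapped in part. Log2 folds ran from -2.55 to -0.64 for the structural and calcium-binding pair, from -1.23 to 0.06 for the 4 channels and transporters, from -0.88 to -0.47 for the enzymes and from -2.28 to -1.16 for the secreted pair. Each role held at least 1 gene that fell, and every role except the secreted one also held a gene that was not called. Differences between roles were not tested, because there is 1 level per condition and 2 to 4 genes per role. Summed over the 10 genes, the level was 1810 in the second and 2536 in the first condition. Slc1a3 and Aldoc made up 75.2% of that sum in the second condition and 64.8% in the first. The other 8 genes together stood at 448.6 in the second and 891.6 in the first. Over the 10 genes the log2 fold was higher at higher mean level, with a Spearman rho of 0.60, so the less abundant genes tended to have the more negative log2 folds; all 10 values come from the same libraries. Ordered by level, the first 6 places were the same in both conditions: Aldoc, Slc1a3, Glul, Apoe, Gja1 and Slc1a2. Places 7 to 9 were held by S100b, Gfap and Agt in the second condition, and by Gfap, Agt and S100b in the first, and Aqp4 came last in both. Whether neighbours in this order differ beyond their spread cannot be said without values per library.

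The chromosomal neighbours of the astrocyte genes were looked up as well. The nearest row of the authors' deposited table on each side was taken from the annotation, 20 genes in all, and Cuffdiff called 0 of them; 3 had an unadjusted p under 0.05. The count of 0 called is near the 4.99% of all rows that were called, and the share of all rows under that p was not counted. Gaps ran from 0 kb (Dip2a and S100b) to 1190 kb (Ier5 and Glul), so not all of the 20 lie close to a marker gene. Eftud2 and Kif18b, within 6.35 kb of Gfap, had log2 folds of 0.15 and 0.22 in the authors' deposited table. Cog2, 4.53 kb from Agt, had one of 0.08, and Tomm40, 2.12 kb from Apoe, one of 0.31. The lowest of the 20 was 2310022B05Rik, 66 kb from Agt, whose log2 fold was -0.54 in the authors' deposited table (q 0.0976).

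A wider list of 46 other astrocyte genes gave the same prevailing direction with more exceptions. It too was chosen with earlier results of these data known, so it is no independent support. Of 43 in the authors' deposited table, 12 fell, 2 rose and 29 were not called, and 33 had a negative log2 fold. Over all rows 1.83% fell, 3.17% rose and 49.5% had a negative log2 fold. The median log2 fold of the 43 was -0.41, against 0.00335 over all rows, and -0.31 with the median of like transcript length taken off. The largest falls were those of Cst3, the protease inhibitor cystatin C, at 260.1 in the second and 671 in the first condition, and Itih3, at 2.31 in the second and 5.35 in the first condition, in the authors' deposited table. Sparcl1, a matricellular protein that astrocytes secrete, stood at 7.81 in the second and 17.6 in the first condition in the authors' deposited table, and the phospholipase gene Pla2g7 at 63.5 in the second and 131 in the first condition. The genes that rose were Aldh1l1, a folate enzyme used as a pan-astrocyte marker, at 11.6 in the second and 4.98 in the first condition, and Cbs, an enzyme of the transsulfuration pathway, at 15.1 in the second and 9.11 in the first condition, in the authors' deposited table. Aldh1l1 shares exonic bases with Gm45901 (same strand) and Gm15756 (opposite strand), and Pla2g7 with 1700071M16Rik (opposite strand).

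The wider list was then sorted into roles after its values had been seen, so the split is a description, to be read against 1.83% of all rows falling and 3.17% rising. Of 10 secreted proteins 5 fell and 0 rose: Cst3, Itih3, Sparcl1, Pla2g7 and Scg3. Of 12 transporters, pumps and channels 2 fell and 0 rose: Ttyh1, at 93.7 in the second and 175 in the first condition, and Atp1b2, a subunit of the sodium pump, at 224 in the second and 369 in the first condition, in the authors' deposited table. The 8 solute carriers among them were not called, and 3 had an unadjusted Cuffdiff p under 0.05. Their log2 folds ran from -0.52 to 0.46, and the GABA transporter gene Slc6a11 stood at 308 in the second and 302 in the first condition in the authors' deposited table. Kcnj10, the potassium channel Kir4.1 that works beside Aqp4 at the endfoot, stood at 409 in the second and 370.4 in the first condition in the authors' deposited table, with a q of 0.814. Among 9 receptors and surface proteins 1 fell, S1pr1, a receptor for sphingosine 1-phosphate, at 17.8 in the second and 32.8 in the first condition in the authors' deposited table. Among 12 enzymes and other intracellular proteins 4 fell (Dbi, Id3, Mt1 and Ppp1r3c) and 2 rose.

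**Figure D4:**
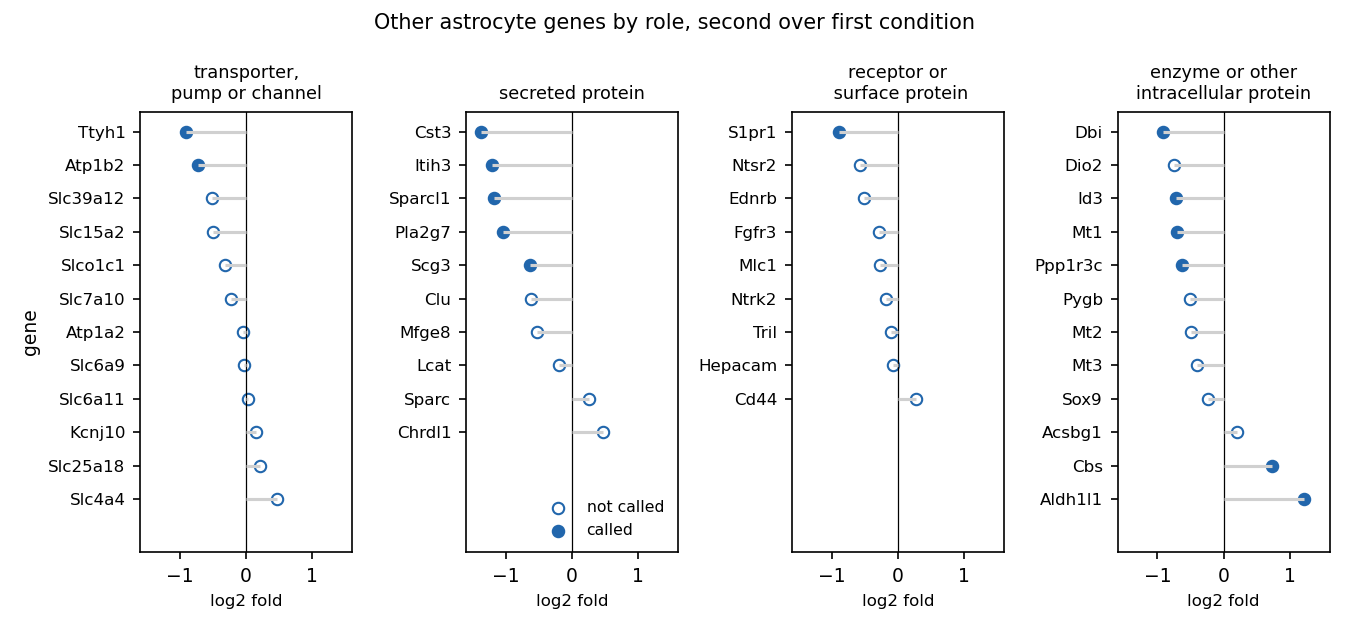
Log2 fold of the second over the first condition (horizontal axes) for 43 further astrocyte genes in 4 panels by role, filled where called by the authors. Filled points on the left number 5 of 10 among secreted proteins and 2 of 12 among transporters, pumps and channels, and the filled points on the right are Cbs and Aldh1l1.

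Genes known to control the astrocyte programme moved in both directions. Of 39 gliogenic signalling genes and factors in the authors' deposited table, 4 fell, 3 rose and 32 were not called, against 1.83% falling and 3.17% rising over all rows. Their median log2 fold was -0.03, and -0.13 with the median of like transcript length taken off. Hes5, a Notch-induced repressor, stood at 14.4 in the second and 37.3 in the first condition, and Id2, which holds back basic helix-loop-helix factors, at 38.0 in the second and 81.9 in the first condition, in the authors' deposited table. Id3, of the same family, and Erbb4, a neuregulin receptor, were the other falls. The rises included Notch1 and the transcriptional co-activator Crebbp, which stood at 14.7 in the second and 8.61 in the first condition in the authors' deposited table. Stat3, the transcription factor that acts on Gfap, stood at 68.5 in the second and 59.4 in the first condition in the authors' deposited table, with a q of 0.627. The nuclear factor I genes Nfia, Nfib and Nfix had log2 folds between -0.08 and 0.26 in the authors' deposited table, and none of them was called. Exons of Hes5 and Notch1 overlap other genes on the opposite strand.

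Markers of other cell types bear on how these levels are read, since in bulk RNA fewer cells of a type and less RNA per cell cannot be told apart. Calls among them are to be read against the 1.83% of all rows that fell and the 3.17% that rose. A marker counts as present if it has a row under its own name, so genes within the 82 rows that name several genes were not matched. No row had a level of 0 in either condition, so a marker without a row has no measured level here and is not shown to be unexpressed. Neural stem cell and radial glia markers, the labelled cell type, were present for 17 of 19 genes besides Slc1a3, with summed levels of 4460 in the second and 6585 in the first condition. Of these 3 fell (Fabp7, Hes5 and Hopx) and 4 rose (Tnc, Sox1, Nes and Notch1). The log2 fold was positive for 9 and negative for 8 of the 17, with a median of 0.03. Fabp7, the brain lipid binding protein of radial glia, stood at 2286 in the second and 4620 in the first condition in the authors' deposited table. It made up most of both sums, which therefore do not describe the other genes. Tnc stood at 94.5 in the second and 35.5 in the first condition. Sox2 stood at 51.1 in the second and 59.7 in the first condition and was not called. Oligodendrocyte lineage markers were present for 10 of 14 genes, with sums of 1345 in the second and 1570 in the first condition. Most of both sums came from Olig1, at 810 in the second and 937 in the first condition, and Olig2, at 333 and 381. Neither was called, while 3 other genes of the list fell, Gpr17 and Lhfpl3 among them. Sox10, Mbp, Mag and Mog are not among the rows analysed here. Neuron markers were present for 10 of 14 genes, with sums of 217.2 in the second and 222.2 in the first condition, 1 fall and 1 rise. Most of both sums came from Map2, at 127.4 in the second and 122.1 in the first condition. Of 12 microglia markers only Cd68 was present, at 1.31 in the second and 0.693 in the first condition in the authors' deposited table, and of 10 endothelial markers 0 were. Fibroblast and mural markers were present for 2 of 12 genes, Acta2 and Tagln, of which Acta2 rose, and ependymal markers for 3 of 10, of which Foxj1 rose. The part of these markers in the astrocyte result was not tested.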

How the data were processed

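RNA was sequenced from 6 libraries of mouse neural stem cells, made with a SOLiD kit, per the labels' protocols. Cuffdiff, TopHat2 2.0.9, Cufflinks 2.2.1 and the build mm10 come from the submitters' processing notes. Which annotation and strand setting were used is not given in the sources used here. What the authors deposited is 1 table, whose header names, for each gene, a level in a first and a second condition, a log2 fold, a significance flag, a test statistic (a score) and the p-value and q-value. The deposited levels are taken as FPKM, which Cuffdiff writes; the header gives no unit. Depth is unknown, and no test could be refitted.

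Calls are the authors' flag over the deposited table (highest q called 0.0494, lowest not called 0.0504). The deposited log2 fold was within 1.25e-05 of that of the levels. The statistic gives no standard error: for values from 2 to 2.5 in size, its median normal p was 0.0279 and the median deposited p 0.000525. The 10 genes and all lists were chosen with earlier results of these data known. Named were the 10 genes, called members of each list (at most 6), family relatives, chromosomal neighbours and Sox4. Genes outside that rule were named after their values were seen, as background or for contrast. A few listed genes are counted but not reported here by name. Positions and lengths (longest transcript) come from GENCODE release M21, on GRCm38, matched for 11673 rows as written and 461 through a synonym. Promoter windows come from RefSeq. Medians by 10 groups of length and of level, and Benjamini-Hochberg values, were computed with pandas 2.3.3, scipy 1.17.1 and numpy 2.4.6 in Python 3.11.15 (figures: matplotlib 3.10.9), after the steps were tested on simulated data.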

Additional observations from a re-analysis of the deposited data

How the results depend on the processing

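Falls among the 10 astrocyte genes numbered 6, and stayed 6 at a q of 0.01, with q recomputed over all rows or over rows with a level of at least 1 or 5, and with rows that name 1 gene. They numbered 5 when the log2 fold had to reach 1 in size, which leaves out Glul, and rises stayed 0 under each of these. The median log2 fold of the 10 genes lay between -1.02 and -0.94 over the pseudocounts of 1 and 0.1 and the 3 ways of taking off a median (of rows with both levels at least 1, of like transcript length, of like level), and 9 of 10 genes kept a negative value under each. A pseudocount cannot change a sign. Of 50 alternative values for single genes 2 moved by over 1.5 times, both of Slc1a3, which was not called: 0.02 with the median of like length and 0.14 with that of like level taken off. Falls and rises over the whole table, 225 and 390, were 110 and 203 when q had to reach 0.01, and 89 and 134 when the log2 fold had to reach 1 in size. The other settings left both within 1.5 times. With q recomputed over all rows they were 245 and 422, so the deposited q values are not Benjamini-Hochberg values over these rows alone. The wider astrocyte list had 12 falls and 2 rises also with q recomputed over all rows or over rows with a level of at least 1, the settings run for it. Of 28 alternative list medians 2 moved by over 1.5 times, both of the neuron markers, around a median of -0.02. Taking off the median of like length, an alternative chosen after seeing the data, moved 7 of 14 list medians by over 1.5 times or across 0; those of the apolipoprotein and the stem cell lists changed sign, to -0.01 and -0.045. No paired analysis was possible because no passage has a value of its own in the deposited file. Leaving out each replicate was likewise not run, and depth sets no limit that can be stated.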
